A study of Mus musculus with 4 samples.

Results

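The imprinted Dlk1 to Dio3 domain is a stretch of mouse chromosome 12 whose genes are read from only 1 parental copy. Its 6 genes Dlk1, Meg3, Rtl1, Rian, Mirg and Dio3 were taken by the gene name that the array files give to each non-control probe. The rule itself uses no measured value, although the domain was chosen with earlier results of these data known. The array names 28095 different genes or transcripts on 41174 such probes, and 11 of these probes belong to the domain, namely 2 for Dlk1, 5 for Meg3, 2 for Rian, 1 for Mirg and 1 for Dio3. Rtl1 had 0 probes, also when probes were sought by its RefSeq transcripts, so 5 of the 6 genes could be followed. All 11 lie on chromosome 12 of mm9, and the outermost probes of Dlk1 and Dio3 are 820.749 kb apart.

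The samples were wild type primary embryonic fibroblasts of C57BL/6 mice, grown in 10% FCS (fetal calf serum). One group received a negative control siRNA and the other an siRNA against Xpo5, the gene of Exportin-5, each at 60 nM by reverse transfection with Lipofectamine RNAiMAX. Both groups were incubated for 12 h, held for 48 h in 0.2% FCS, a level at which fibroblasts stop cycling, and given 20% FCS for 24 h together with another forward transfection of the same siRNA. With 2 independent experiments there were 2 samples per group, and the Cy3-labelled RNA of each went onto a separate 1-colour array. No untransfected cells were among the samples used here, and whether the experiments drew on separate embryos is not stated, so that a p-value measures only the spread between these arrays.

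In such a domain the parental copies carry different methylation marks. Dlk1, Rtl1 and Dio3 are protein-coding genes read from the paternal copy, whereas Meg3, Rian and Mirg are long non-coding RNAs read from the maternal copy, from which many small nucleolar RNAs and microRNAs are also cut. Exportin-5 carries microRNA precursors from the nucleus to the cytoplasm, where Dicer trims them. The domain is known for its activity in embryonic and mesenchymal tissue and for falling silent in many adult cells. The comparison asks whether the transcripts of this domain differ between fibroblasts with and without the siRNA against Xpo5 during return to the cell cycle.

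The microRNAs that the non-coding RNAs of the domain carry are the cargo class of Exportin-5, and a few are shown for that reason, although these arrays did not measure them. RefSeq on GRCm38.p6 lists 58 hairpins between Dlk1 and Dio3, which is 5.77% of the 1005 in its mouse table, and 54 of them lie on the plus strand. Of their 114 entries for mature sequences, 29 fall within the span of Rtl1, 6 within Rian, 19 within Mirg, 3 within Meg3 and 55 between Rian and Mirg. These counts go by position alone, on either strand, and do not name the RNA from which a sequence is cut. The first below lies in Meg3, the next pair in the span of Rtl1, then 1 in Rian, a pair between Rian and Mirg, and a pair in Mirg, with the seed, bases 2 to 8, in capitals.
mmu-miR-770-3p: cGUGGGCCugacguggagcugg
mmu-miR-127-3p: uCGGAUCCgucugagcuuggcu
mmu-miR-136-5p: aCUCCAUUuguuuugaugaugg
mmu-miR-370-3p: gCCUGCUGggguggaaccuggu
mmu-miR-379-3p: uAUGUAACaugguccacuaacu
mmu-miR-411-3p: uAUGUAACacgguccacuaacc
mmu-miR-541-5p: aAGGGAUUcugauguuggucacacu
mmu-miR-410-3p: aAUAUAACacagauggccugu
The mature sequences of miR-379-3p and miR-411-3p share their seed. Over the whole domain there are 104 different seeds, of which 10 occur in more than 1 of the 114 entries. The seed of miR-3070-5p is among these because the same mature sequence is listed at 2 positions.

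What the arrays did measure is RNA that binds probes of 60 bases. The probes of the 3 non-coding hosts are given here because they show which stretch of each long transcript was read, in lower case throughout because no base is singled out.
Meg3 A_52_P391505: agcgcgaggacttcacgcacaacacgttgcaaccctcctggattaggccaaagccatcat
Meg3 A_52_P99341: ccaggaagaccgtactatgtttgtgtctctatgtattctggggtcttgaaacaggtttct
Meg3 A_52_P196568: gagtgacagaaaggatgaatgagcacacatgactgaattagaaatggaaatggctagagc
Meg3 A_51_P109649: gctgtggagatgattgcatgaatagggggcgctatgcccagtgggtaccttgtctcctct
Meg3 A_51_P455997: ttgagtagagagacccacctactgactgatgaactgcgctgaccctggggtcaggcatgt
Rian A_52_P102630: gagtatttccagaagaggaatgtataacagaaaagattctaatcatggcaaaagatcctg
Rian A_52_P244: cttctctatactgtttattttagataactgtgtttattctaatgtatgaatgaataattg
Mirg A_52_P277415: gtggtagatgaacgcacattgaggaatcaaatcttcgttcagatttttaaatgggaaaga
The longest run that any pair of the 11 member probes shared was 9 bases, and no member sequence was found on another probe of the array. All 11 probes are placed on the plus strand.

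Between 62.4% and 65% of the spots of each array were well above background, and 0 were saturated. With 4 arrays, precision is limited by their number. The Xpo5 transcript had log2 signals, relative to the 75th percentile of each array, of 1.31 and 1.26 with control siRNA, against -1.95 and -1.93 with Xpo5 siRNA on its brightest probe, and was lower by 3.23 ± 0.14 (SE, 2 arrays per group, limma adjusted p = 0.0656). With the replicate number as a block its limma adjusted p was 0.0405, under the threshold of 0.05. Its other tested probes differed by -3.08 ± 0.21 and -1.34 ± 0.45 (SE, 2 arrays per group, limma adjusted p = 0.178 and 0.425). A further Xpo5 probe was well above background on 1 Xpo5 siRNA array only and was not tested. On each tested Xpo5 probe both control arrays lay above both Xpo5 siRNA arrays, which fits the labels. Of the fibroblast markers, 11 of 11 were above background, among them those for collagen I and vimentin. Replicate numbers were read as the 2 experiments, and each of the 2 slides held 1 control array and 1 Xpo5 siRNA array of different numbers.

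Every measured gene of the domain had a higher mean signal with Xpo5 siRNA, by 0.10 to 0.55 on the log2 scale, and none of these differences passed the test. The mean was higher for 11 of 11 probes (10 of 11 with arrays scaled to their medians or from the deposited table, and 4 of 11 with normexp background correction that kept all spots), against 51.8% of the probes tested. Their median difference was 0.39, against 0.012 over all probes with 4 values. The 11 probes read only 5 genes on the same arrays, so they are not independent readings. With 1 probe per gene name and the main scaling, 5 of 5 were higher, with a median of 0.45. In limma, 0 of the 11 passed an adjusted p of 0.05, where 0 of 25628 probes (0%) did so, and 0 of the 11 had an unadjusted p under 0.05, where 10.9% did. The adjusted p-values of the 11 ran from 0.503 to 0.854. In bulk RNA, a different share of cells of a type and a different amount of RNA per cell cannot be told apart.

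**Figure D1:**
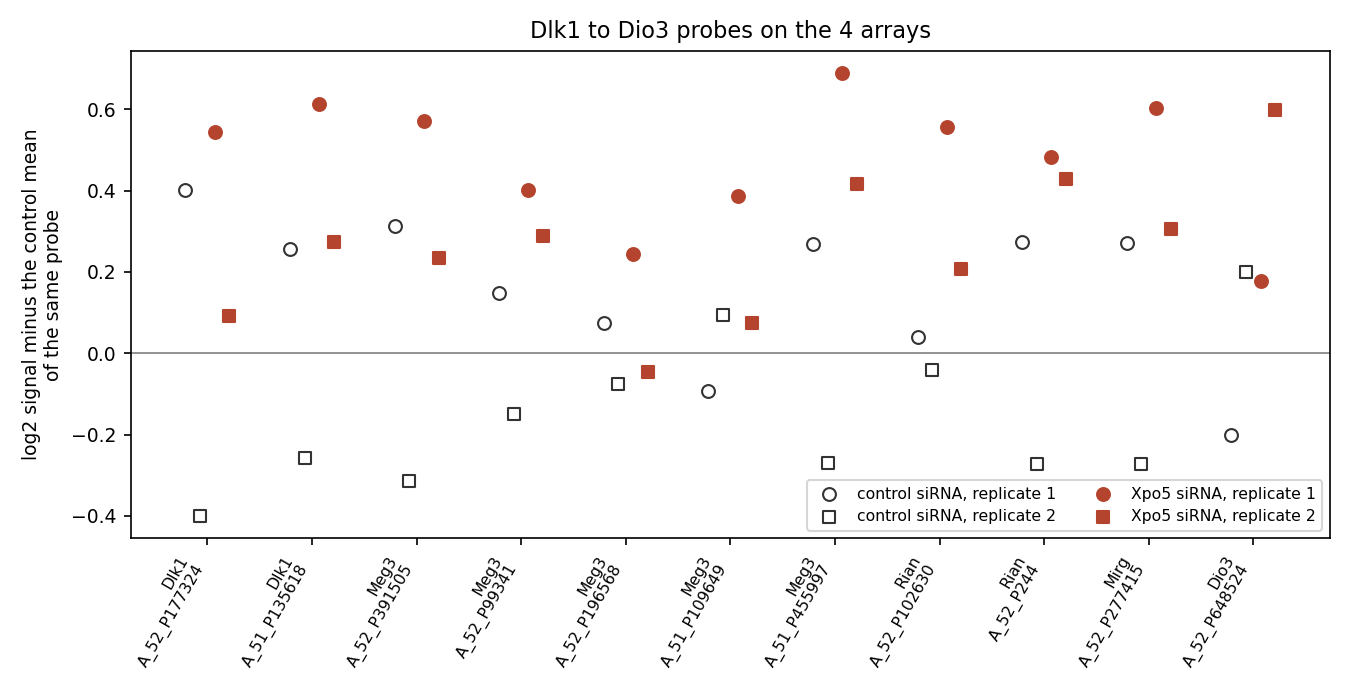
Log2 signal of each of the 11 member probes on each of the 4 arrays, minus the control mean of the same probe, with control siRNA as open and Xpo5 siRNA as filled symbols, and replicate 1 as circles and replicate 2 as squares. For 6 of the 11 probes both filled symbols lie above both open ones, and within each siRNA the circle lies above the square except for Dio3 and the control arrays of Meg3 A_51_P109649. With normexp that kept all spots, 7 of the 11 differences turn negative.

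Dlk1 encodes a transmembrane protein with EGF-like repeats that holds back the formation of fat cells. Its probe A_51_P135618 (chr12:110698667-110698726) read 6.58 and 6.07 on the control arrays of replicates 1 and 2, and 6.94 and 6.60 on the Xpo5 siRNA arrays. The groups did not overlap, but by only 0.018, the distance between Xpo5 siRNA replicate 2 and control replicate 1. The difference was 0.44 ± 0.24 (SE, n = 2 per group, 95% interval -0.20 to 1.08, limma adjusted p = 0.578), a ratio of 1.36. Without control replicate 2 it was 0.19, and without Xpo5 siRNA replicate 1 it was 0.27, while without control replicate 1 it was 0.70.

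The other Dlk1 probe, A_52_P177324 (chr12:110698428-110698487), lies 0.239 kb before it and read 5.14 and 4.33 with control siRNA, against 5.28 and 4.83 with Xpo5 siRNA. Here the groups overlapped, since control replicate 1 exceeded Xpo5 siRNA replicate 2. The mean was higher by 0.32 ± 0.33 (SE, n = 2 per group, limma adjusted p = 0.758) and became -0.083 when control replicate 2 was left out. Both probes read higher with Xpo5 siRNA within each replicate number, by 0.14 and 0.36 in replicate 1 and by 0.49 and 0.53 in replicate 2.

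Meg3, once named Gtl2, is the long non-coding RNA at the start of the maternal transcripts. Its brightest probe, A_51_P455997 (chr12:110809678-110809737), read 5.78 and 5.24 with control siRNA, against 6.20 and 5.93 with Xpo5 siRNA. Both Xpo5 siRNA arrays lay above both control arrays, by at least 0.15. With all 4 arrays and the main processing this was the largest of the 11 differences, 0.55 ± 0.24 (SE, n = 2 per group, 95% interval -0.08 to 1.19, limma adjusted p = 0.503), or 1.47-fold. Without control replicate 2 it was 0.28, where Dio3 was 0.59, and without Xpo5 siRNA replicate 1 it was 0.42, where Dio3 was 0.60.

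Another Meg3 probe, A_52_P391505, is placed by the files from 110787974 to 110796459, a span of 8486 bases for 60 bases of sequence, so that it joins separate stretches of the genome. Its signals were 4.15 and 3.52 with control siRNA, against 4.40 and 4.07 with Xpo5 siRNA. The groups overlapped, with control replicate 1 above Xpo5 siRNA replicate 2. The difference was 0.40 ± 0.27 (SE, n = 2 per group, limma adjusted p = 0.636), and it ran from 0.089 without control replicate 2 to 0.72 without control replicate 1.

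The files place 3 further Meg3 probes between these and assign them to another transcript variant. A_52_P99341 (chr12:110797172-110797231) read 0.07 and -0.23 with control siRNA, against 0.32 and 0.21 with Xpo5 siRNA, with no overlap. A_52_P196568 (chr12:110799558-110799617) read -0.57 and -0.72 and then -0.40 and -0.69, and A_51_P109649 (chr12:110800898-110800957) read 0.81 and 1.00 and then 1.29 and 0.98. On these last probes the groups overlapped, and on A_51_P109649 the control array of replicate 2 lay above the Xpo5 siRNA array of the same number.

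For these 3 Meg3 probes the differences were 0.35 ± 0.17, 0.10 ± 0.17 and 0.23 ± 0.18 (SE, n = 2 per group), with limma adjusted p-values of 0.543, 0.854 and 0.682. The smallest, A_52_P196568, was -0.0064 under median scaling, -0.0069 in the deposited table and -0.046 without Xpo5 siRNA replicate 1. A_52_P99341 was 0.20 without control replicate 2, and A_51_P109649 ran from 0.075 without Xpo5 siRNA replicate 1 to 0.39 without Xpo5 siRNA replicate 2. A_51_P109649 was the only one of the 11 probes that was not higher with Xpo5 siRNA in both replicates, with 0.48 in replicate 1 and -0.018 in replicate 2. Across the 5 Meg3 probes the median difference was 0.35. Whether the probes read different isoforms in different amounts was not tested.

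Rian, a non-coding RNA that hosts many small nucleolar RNAs and a few microRNAs, had a pair of probes. A_52_P102630 (chr12:110890293-110890352) read -0.94 and -1.02 with control siRNA, against -0.42 and -0.77 with Xpo5 siRNA. A_52_P244 (chr12:110898804-110898863) read 0.75 and 0.21 with control siRNA, against 0.96 and 0.91 with Xpo5 siRNA. The groups did not overlap on either probe.

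The Rian differences were 0.38 ± 0.18 and 0.46 ± 0.23 (SE, n = 2 per group), with limma adjusted p-values of 0.527 and 0.543. The 95% intervals ran from -0.09 to 0.85 and from -0.14 to 1.05. Replicate 1 showed the larger difference on A_52_P102630 (0.52 against 0.25), and replicate 2 on A_52_P244 (0.70 against 0.21). With an array left out the first ran from 0.21 (without Xpo5 siRNA replicate 1) to 0.56 (without Xpo5 siRNA replicate 2), and the other from 0.18 (without control replicate 2) to 0.73 (without control replicate 1).

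Mirg is the non-coding RNA whose span holds part of the large microRNA cluster. Its probe A_52_P277415 (chr12:110979536-110979595) read 1.44 and 0.90 with control siRNA, against 1.77 and 1.48 with Xpo5 siRNA. The groups were separated by 0.035, again between control replicate 1 and Xpo5 siRNA replicate 2. The difference of 0.45 ± 0.24 (SE, n = 2 per group), or 1.37-fold, had a limma adjusted p of 0.574. It was 0.18 without control replicate 2 and 0.73 without control replicate 1.

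Dio3 encodes the deiodinase that inactivates thyroid hormone. Its probe A_52_P648524 (chr12:111519117-111519176) read -1.74 and -1.34 with control siRNA, against -1.37 and -0.94 with Xpo5 siRNA. The overlap was slight, with control replicate 2 above Xpo5 siRNA replicate 1 by 0.023, and within each replicate number the Xpo5 siRNA array was higher, by 0.38 and 0.40. The mean differed by 0.39 ± 0.23 (SE, n = 2 per group, 95% interval -0.23 to 1.00, limma adjusted p = 0.604), or 1.31-fold. It was 0.18 without Xpo5 siRNA replicate 2 and 0.19 without control replicate 1, and 0.59 and 0.60 without control replicate 2 and Xpo5 siRNA replicate 1.

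**Figure D2:**
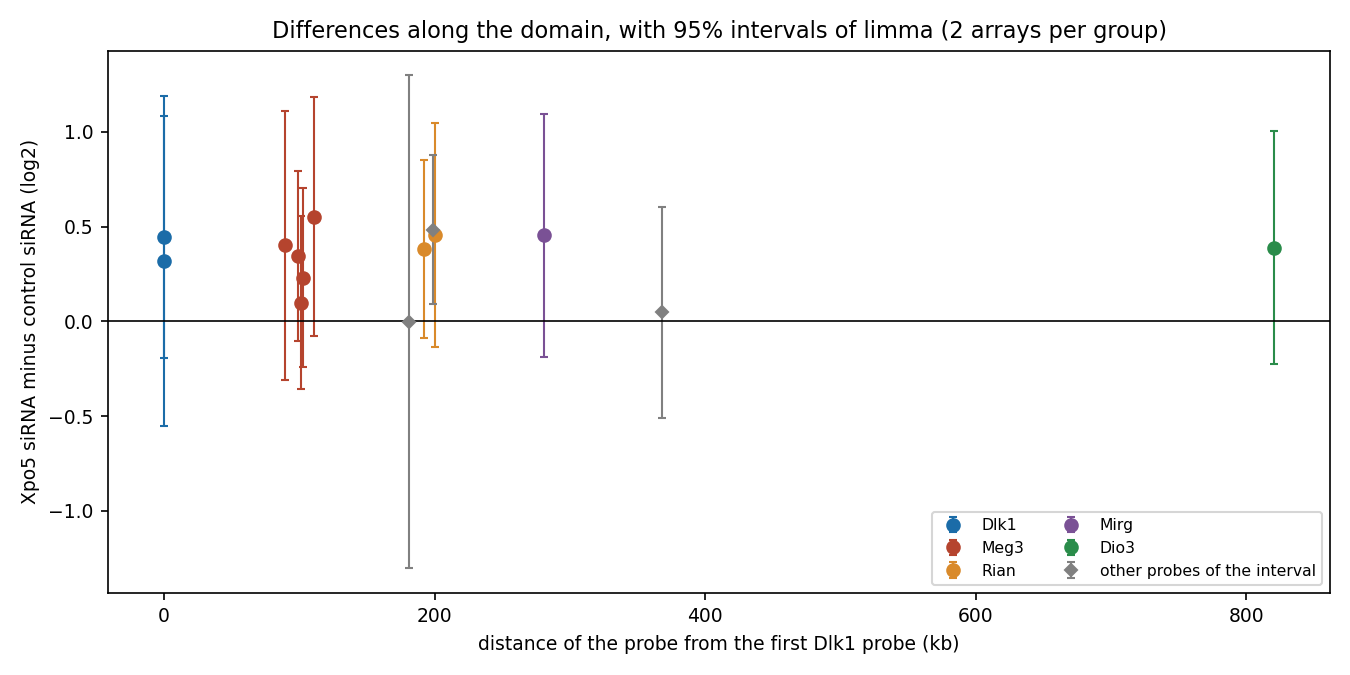
Difference between Xpo5 siRNA and control siRNA on the log2 scale for each kept probe of the domain, against its distance in kb from the first Dlk1 probe, with 95% intervals of limma from 2 arrays per group, members as coloured circles and other probes as grey diamonds. All 11 member means lie between 0.10 and 0.55, and each of their intervals includes 0. Under normexp that kept all spots, 7 of the 11 means fall below 0.

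All 6 other probes of the interval carry other names. AK086774 (chr12:110897239-110897298), a cDNA placed between the Rian probes, read -2.93 and -2.76 with control siRNA, against -2.41 and -2.31 with Xpo5 siRNA, and differed by 0.48 ± 0.15 (SE, n = 2 per group, limma adjusted p = 0.395). The groups did not overlap, and its unadjusted p was 0.0256. AK049674 (chr12:110879940-110879999) and NAP070880-1, placed by the files from 111066307 to 111080104, differed by -0.0025 ± 0.49 and 0.048 ± 0.21 (SE, n = 2 per group). Dio3os, antisense to Dio3, was well above background on 1 control array, and B830012L14Rik and 4930511J24Rik on 0 arrays, so these 3 were not tested.

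The separation of the groups depended on which arrays were set against each other. In both replicate numbers, 10 of the 11 probes were higher with Xpo5 siRNA, against 35.9% of the probes with 4 values, and the members' median difference was 0.33 in replicate 1 and 0.49 in replicate 2. The groups did not overlap for 6 of the 11, all higher with Xpo5 siRNA, against 21.5% in that direction and 43.2% in either. Within both slides, 7 of the 11 were higher, against 24.7%, with a median of 0.76 on the slide that held Xpo5 siRNA replicate 1 and control replicate 2, and 0.14 on the slide that held the converse pair. With the replicate number as a block, 8 of the 11 had an unadjusted limma p under 0.05, all of them higher, against 23.4% in either direction and 13.4% higher, and 0 of the 11 passed after adjustment, against 0.0156%, with adjusted p-values from 0.127 to 0.631.

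The means of most members were also higher in replicate 1, though none of these differences passed the main test. All but Dio3 and Meg3 A_51_P109649, which is 9 of the 11, read higher in replicate 1 than in replicate 2 with both siRNAs, against 37.9% of the probes. The members' median difference between the numbers was 0.30, and it was 0.51 among the control arrays and 0.30 among the Xpo5 siRNA arrays. In limma with the siRNA as the other term, 0 of the 11 passed after adjustment, where 0 of 25627 probes (0%) did, and 6 of the 11 had an unadjusted p under 0.05, against 23.3%, of which 5 were higher in replicate 1, against 9.47%, and 1, Dio3, was lower. Under an intensity trend 5 of the 11 passed after adjustment, against 11.9% of the probes, and with normexp without the spots of uneven background 6 of the 11 did, against 13.6%.

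Among single members, Dlk1 A_52_P177324 had the difference of greatest size between the numbers in this fit, 0.63 ± 0.14 (SE, 4 arrays, limma adjusted p = 0.131), which is more than its difference between the siRNAs of 0.32. Meg3 A_51_P455997 differed by 0.41 ± 0.13 (SE, limma adjusted p = 0.180) and Mirg by 0.42 ± 0.13 (SE, limma adjusted p = 0.170). Dio3 went the other way, with -0.41 ± 0.11 (SE, limma adjusted p = 0.150), lower in replicate 1 with both siRNAs. Its 2 differences were thus of like size, 0.39 between the siRNAs and -0.41 between the numbers. Embryo, passage and handling of the 2 experiments cannot be told apart here.

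**Figure D3:**
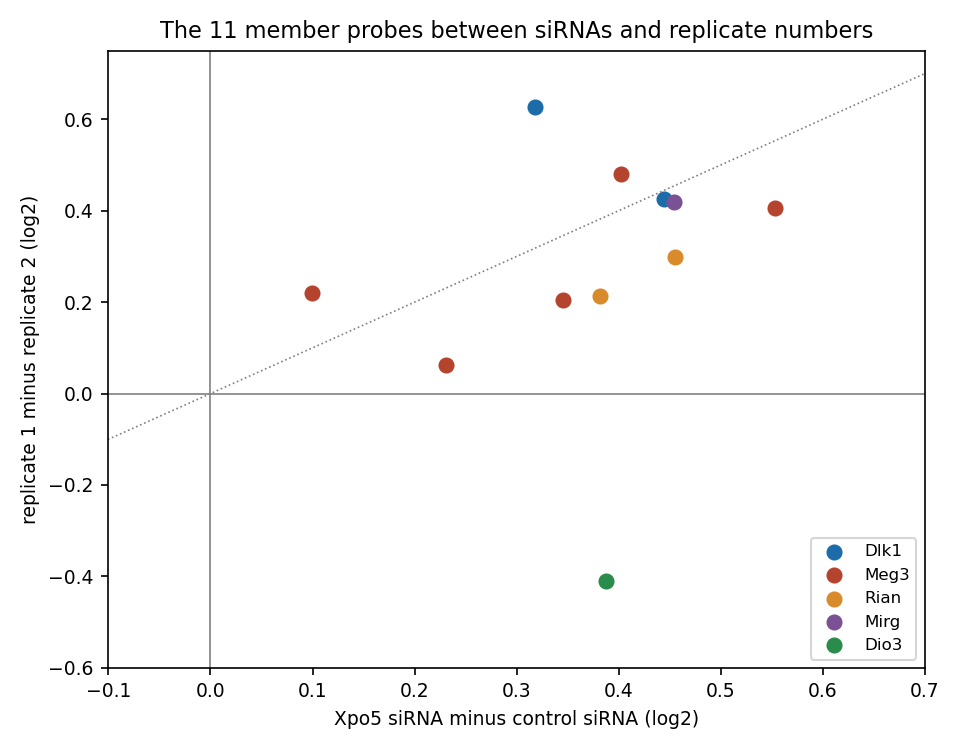
Difference between replicate 1 and replicate 2 against the difference between Xpo5 siRNA and control siRNA, both on the log2 scale, for the 11 member probes coloured by gene. The dotted line marks equal values of the same sign. The 10 probes of Dlk1, Meg3, Rian and Mirg have a positive difference between the numbers, up to 0.63, while Dio3 stands alone at -0.41. Under normexp that kept all spots, 7 of the 11 differences between the siRNAs turn negative, and so do 8 of the 11 between the numbers, while that of Dio3 turns positive.

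Some marker sums were higher with Xpo5 siRNA and others were not. All 12 macrophage markers measured had higher means with Xpo5 siRNA, against 51.8% of all probes tested, and their median difference was 0.66. The largest was for Aif1, a calcium-binding protein of macrophages, at 1.08 ± 0.24 (SE, n = 2 per group, limma adjusted p = 0.324), and 0 of the 12 passed, against 0% of all probes tested. Their summed signal, as a multiple of the array's 75th percentile, was 58.5 and 41.6 on the control arrays of replicates 1 and 2. It was 82.9 and 70.9 on the Xpo5 siRNA arrays. The 6 member probes whose groups did not overlap had this order over the 4 arrays, and the other 5 did not. Those 6 were picked by separated groups, which fixes much of the order, so no conclusion is drawn from it. Fibroblast markers had 8 of 11 higher and 3 lower, a median of 0.024, and sums of 2198 and 2003 with control siRNA, against 2497 and 2355 with Xpo5 siRNA, again in that order. The summed neural markers were lower with Xpo5 siRNA, at 26.0 and 25.3 on the control arrays and 20.0 and 20.7 on the Xpo5 siRNA arrays. Most single neural markers went the other way, with 6 of the 8 above background higher, 2 lower and a median of 0.43. Skeletal muscle sums were lower in replicate 1 than in replicate 2 with both siRNAs, between 17.0 and 24.1. Epithelial sums were higher in replicate 1, at 6.12 and 4.98 with control siRNA, then 5.89 and 4.89. The part of any of these in the members' differences was not tested.

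Genes on both sides of the domain gave no such common direction. The list held 23 names, some of them aliases of the same gene, and gave 20 genes with a probe. Of these 19 were above background, with 8 higher and 11 lower means with Xpo5 siRNA and a median of -0.071. In limma 0 of the 19 passed, where 0% of all probes tested did. The smallest p-values were those of Rcor1, a corepressor of neuronal genes, at 0.57 ± 0.21 (SE, n = 2 per group, limma adjusted p = 0.446), of the mitochondrial carrier gene Slc25a47 at -0.40 ± 0.15 (SE) and of the phosphatase subunit gene Ppp2r5c at -0.27 ± 0.14 (SE).

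Regulators that write, read or erase imprints had mostly lower means, 14 of 18 lower and 4 higher, where 51.8% of all probes tested were higher. Their median was -0.20, and 0 of the 18 passed in limma, where 0 of 25628 probes (0%) did. With both siRNAs, 14 of the 18 read higher in replicate 1 than in replicate 2, against 37.9% of the probes with 4 values. Dnmt3b, a de novo DNA methyltransferase, read -2.61 and -2.89 with control siRNA, against -3.41 and -3.50 with Xpo5 siRNA, a difference of -0.71 ± 0.17 (SE, n = 2 per group, limma adjusted p = 0.334). Ezh2, the methyltransferase of Polycomb repressive complex 2, differed by -0.51 ± 0.14 (SE, limma adjusted p = 0.366), and Uhrf1, which brings Dnmt1 to newly copied DNA, by -0.53 ± 0.17 (SE, limma adjusted p = 0.396). On each of these 3 probes, named for their small p-values, both Xpo5 siRNA arrays lay below both control arrays. Over the list the groups did not overlap for 12 of 18 in either direction, against 43.2% of the probes with 4 values.

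Other non-coding RNAs that host microRNAs, outside the domain, were compared for their kind of transcript. Of 9 named, 6 had a probe and 5 were above background. Of these 4 were higher and 1 lower, with a median of 0.24 and 0 of the 5 passing, against 0% of all probes tested. H19, the imprinted host of miR-675, read 7.05 and 6.48 with control siRNA, against 7.43 and 7.22 with Xpo5 siRNA, a difference of 0.56 ± 0.24 (SE, n = 2 per group, limma adjusted p = 0.500). Dleu2, host of miR-15a and miR-16-1, differed by 0.24 ± 0.16 (SE) and Mir22hg by 0.30 ± 0.22 (SE).

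Genes that act beside the coding members were read from a list for each. Beside Dlk1, 18 of 23 Notch pathway and adipogenesis genes were above background, of which 13 were higher and 5 lower, with a median of 0.11. In limma 0 of the 18 passed, against 0% of all probes tested. The receptors Notch4 and Notch3 differed by 0.68 ± 0.18 and 0.48 ± 0.15 (SE, n = 2 per group, limma adjusted p = 0.361 and 0.408), and Heyl, a transcriptional target of Notch, by 1.21 ± 0.42 (SE, limma adjusted p = 0.431). Beside Dio3, 9 of 14 genes of thyroid hormone handling and response were above background, with 3 higher, 6 lower and a median of -0.017. Here 0 of the 9 passed, again against 0% of all probes tested. Crym, which binds thyroid hormone in the cytosol, differed by 0.72 ± 0.15 (SE, n = 2 per group, limma adjusted p = 0.319), the hormone transporter gene Slc16a10 by -0.31 ± 0.25 (SE) and the corepressor gene Ncor1 by -0.15 ± 0.17 (SE).

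**Figure D4:**
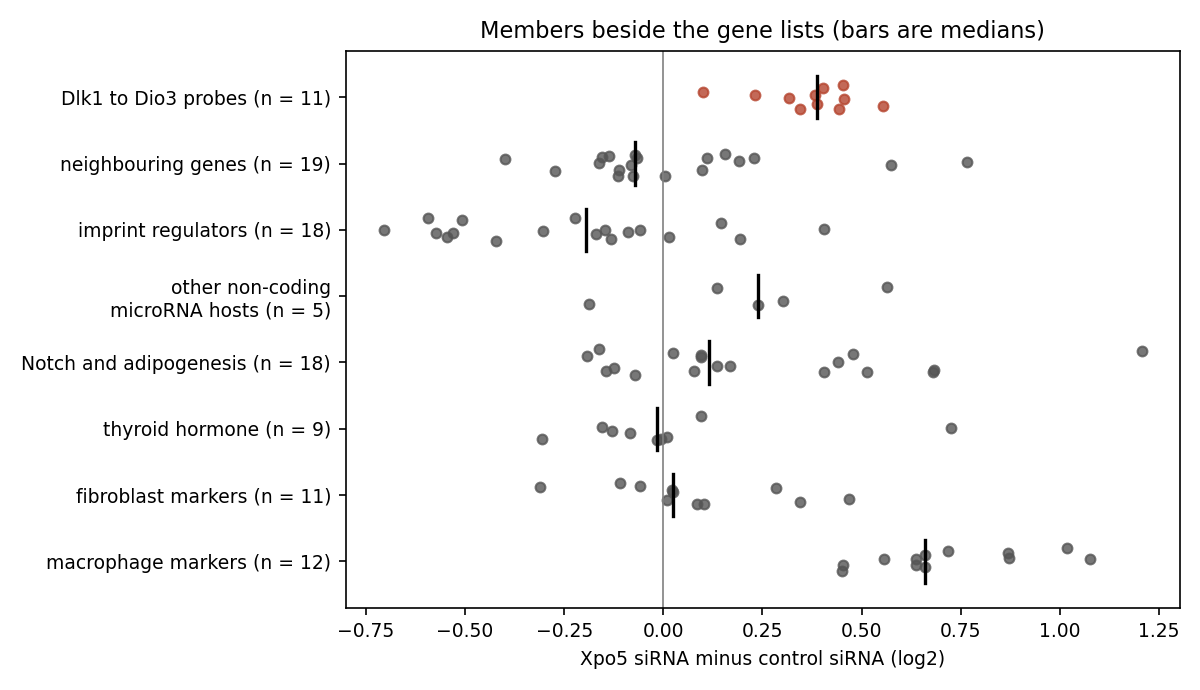
Difference between Xpo5 siRNA and control siRNA on the log2 scale for the 11 member probes and for the genes above background of each list, 1 point per probe or gene, with the median as a black bar. The members' median is 0.39 and that of their neighbours -0.071, while the macrophage markers have the highest median, 0.66. Under normexp that kept all spots the members' median is -0.41.

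Among the 5 nearest patterns of other genes, few belonged to the domain. Probes of the same gene were left out, and ranks are over the rest of the 25614 probes with 4 values. With the values of each probe centred on its mean over the 4 arrays, likeness was measured as the Euclidean distance between probes, on the log2 scale, over these 4 arrays only, which share their scaling. Nearest to Meg3 A_51_P455997 were C1qtnf3 at 0.030, NAP033052-1 at 0.039, Ccn5 at 0.040, Ctnna2 at 0.042 and H19 at 0.051, and 27 probes lay within 0.1. Mirg ranked 29 in nearness to it, Dlk1 A_51_P135618 ranked 55, Rian A_52_P244 ranked 175 and Dio3 ranked 14907. The other probes of Dlk1 and Rian, A_52_P177324 and A_52_P102630, ranked 834 and 1199.

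Dlk1 A_51_P135618 and Mirg were nearer to each other, while Dlk1 A_52_P177324 ranked 520 in nearness to Mirg. Nearest to Dlk1 A_51_P135618 were Mocos, Cd68, Rassf4, Mirg and Nod1, with Mirg at 0.038, and nearest to Mirg were Dgka, Dlk1, Aoc3, Mocos and Cd68. The nearest to Rian A_52_P244 were the transcript named ENSMUST00000018884, Acvr1b, Serpinb10, Nectin2 and Etl4, and to Dio3 they were Snrk, Fggy, Capza2, Tram2 and Dbn1. No other member was among the 5 nearest of Meg3, Rian or Dio3.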

How the data were processed

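Total RNA from 4 fibroblast samples was read on 4 1-colour arrays. The deposited scanner files hold each spot's processed intensity, background-subtracted and detrended on a linear scale, and the software was Agilent Feature Extraction 10.5.1.1, both per the file headers. A deposited table of log2 values equals the log2 of that signal shifted by 1 constant per array, to medians of 5.33 to 5.34, within 0.001 for 99.7% to 99.8% of probes, so that scale and direction are known and genes were not centred. Probe positions are on mm9 per the file headers. No mm9 annotation was used, so exons and introns are not named.

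Outlier spots (77 to 134 of 43379 non-control spots per array) were left out, spots averaged per probe on the log2 scale, and each array's 75th percentile subtracted. Probes were kept if both arrays of a group, either of them, read well above background, which left 25628 of 41174, of which 25614 had 4 values, and all 11 member probes. Names came from RefSeq (GRCm38.p6), through the accession for 26690 probes, the symbol for 5189 and a synonym for 952, while 8343 without a match kept the files' name. List genes were represented by 1 probe each.

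Groups were compared per probe with lmFit and eBayes of limma 3.58.1 (R 4.3.3), two-sided, with no block and 2 residual degrees of freedom, and Benjamini-Hochberg adjustment over all kept probes at 0.05. The script was first tested on simulated data. Replicate numbers were compared in the fit with both terms. The series text names 2 independent experiments, although the labels do not tie numbers to them. Deviations of arrays of the same number correlated at r = 0.515 over probes, which are not independent replicates. The fit with the replicate block has 1 residual degree of freedom, and its residual is the slide contrast.

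Named were every member probe, every other probe of the interval, Xpo5, up to 3 list members by smallest p, and the 5 nearest patterns for the brightest probe of each member. The members and lists were chosen with earlier results of these data known. Alternatives were other scalings, normexp background correction with an offset of 50, other filters, 1 probe per gene name, an intensity trend, blocks, leaving out arrays and the deposited table. Those for the replicate numbers were chosen after seeing the data.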

Additional observations from a re-analysis of the deposited data

How the results depend on the processing

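Of 159 member values under the alternatives, 148 kept their direction and side of the threshold and 11 reversed. Of these, 7 reversed with normexp that kept all spots, which moved the median of all probes from 0.012 to 0.40: Dlk1 A_52_P177324 to -0.79 and A_51_P135618 to -0.66, Meg3 A_52_P391505 to -1.05, A_51_P109649 to -0.45 and A_51_P455997 to -0.67, Rian A_52_P244 to -0.028 and Mirg to -0.41. The members' median was then -0.41. Spots marked for uneven background numbered 12 and 0 on the control arrays of replicates 1 and 2, and 23 and 35 on the Xpo5 siRNA arrays. With such spots left out on every array the median was 0.41. Meg3 A_52_P196568 was -0.0064 with median scaling, which moved the median of all probes to -0.093, -0.0069 in the deposited table, and -0.046 (without Xpo5 siRNA replicate 1) to 0.24 with an array left out, and Dlk1 A_52_P177324 was -0.083 (without control replicate 2) to 0.72 with an array left out. The cause was not tested. Leaving out arrays, with the lone array assumed to vary like the others, gave members' medians from 0.19 (without control replicate 2) to 0.70 (without control replicate 1), with 0.27 without Xpo5 siRNA replicate 1 and 0.54 without Xpo5 siRNA replicate 2.

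Over all probes, 10 passed with median scaling (2 higher and 8 lower), 10 from the deposited table, 1 with normexp without uneven spots, 2 with 1 probe per gene name, 1 with an intensity trend and 4 with the replicate block (1 higher and 3 lower), against 0 otherwise, and 0 members in any of them. The brightest Xpo5 probe was then past the threshold in limma. It was at -3.33 (limma adjusted p = 0.0261) with median scaling, -3.33 (0.0274) from the deposited table and -2.81 (0.00610) with normexp without uneven spots. It was at -3.23 with 1 probe per gene name (0.0219), an intensity trend (0.0157) or the replicate block (0.0405). Its adjusted p ran from 0.00610 to 0.594 over the alternatives. The replicate block changed no call of a member, and rests on reading the numbers as the 2 experiments, which the labels do not state.

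Between replicate numbers, normexp that kept all spots reversed Dlk1 A_52_P177324 to -0.56 and A_51_P135618 to -0.69, Meg3 A_52_P391505 to -0.94, A_52_P99341 to -0.10, A_51_P109649 to -0.56 and A_51_P455997 to -0.81, Rian A_52_P244 to -0.060, Mirg to -0.43 and Dio3 to 0.39. The neighbours' median ran from -0.18 to 0.027, and was positive only without Xpo5 siRNA replicate 1. B830012L14Rik, 4930511J24Rik and Dio3os were too close to background to compare.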

Other observations

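Markers of other cell types were read on the same arrays, and in limma 0 of their genes passed after adjustment, where 0% of all probes tested did. Of 12 neural markers, 8 were above background, 6 higher and 2 lower with Xpo5 siRNA, with a median of 0.43. The intermediate filament gene Nes and the tubulin gene Tubb3 had lower means, with differences of -0.45 ± 0.14 and -0.38 ± 0.15 (SE). The neurofilament gene Nefl differed by 1.14 ± 0.19 (SE, 2 arrays per group, limma adjusted p = 0.316), whereas Dcx, Gfap, Sox2 and Syp were not well above background. Of 8 endothelial markers 4 were above background, 3 higher and 1 lower, with a median of 0.40, a difference of -0.34 ± 0.16 (SE) for Emcn, a surface sialoprotein of endothelium, and a difference of 1.19 ± 0.18 (SE, limma adjusted p = 0.316) for Kdr, a receptor of VEGF, while Cdh5, Cldn5, Pecam1 and Tie1 were not well above background. Of 12 skeletal muscle markers 4 were above background, all higher, with a median of 0.49, and Myod1 and Myog were not. Of 7 epithelial markers 4 were above background, 1 higher and 3 lower, with a median of -0.31. Single markers of hepatocytes (Afp, 0.53), adipocytes (Fabp4, 0.41) and pluripotent cells (Dppa3, -0.15) and a pair of pituitary and adrenal cells (Prl, 0.19, and Dbh, 0.12) were above background. Their part in the differences of the domain was not tested.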
